A study of Mus musculus with 15 samples.

Results

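The effect of a MEK inhibitor (MEKi) on the transcriptome of whole PDA30364 tumors was followed across both antibody backgrounds of the study, with and without an agonist antibody (Ab) against CD40. All 15 arrays of the series were members, 7 from tumors of inhibitor-treated mice and 8 from tumors of vehicle-treated mice, and they were assigned by treatment label and not by any measured value. PDA30364 is a C57BL/6 mouse line of pancreatic ductal adenocarcinoma (PDA) from a genetic mouse model of the disease. In every group, PDA30364 cells were placed under the flank skin of C57BL/6-Ly5.1 mice aged 6 to 12 weeks, and tumors were taken on day 26. The labels speak of 4 to 5 mice in each group, and 3 MEKi arrays were at hand. The control group received vehicle (MCT) and control IgG (n = 4), the CD40 Ab group vehicle and CD40 mIgG1 (n = 4), the MEKi group GDC-0623 and control IgG (n = 3), and the combination group GDC-0623 and CD40 mIgG1 (n = 4). GDC-0623 was dosed at 30 mg/kg each day for about 2 weeks, and the antibodies were injected into the peritoneum at days 3, 5 and 7 of treatment, with a last dose 1 day ahead of analysis. The host had an intact immune system, the line stands for a single tumor genotype, and the site was subcutaneous and not the pancreas. Each tumor gave 1 array, and the labels give every array its own animal number. RNA came from whole tumor, so fewer cells of a type and less RNA per cell cannot be told apart in any value below.

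MEK1 and MEK2 are the kinases that phosphorylate and activate ERK, the last step of the pathway from growth factor receptors through RAS and RAF. In pancreatic cancer this pathway is often constantly driven. ERK then raises transcription of its own brakes, among them the DUSP phosphatases and Sprouty and Spred proteins, of the PEA3 factors Etv4 and Etv5, and of genes that move cells through G1. GDC-0623 binds MEK and blocks this step.

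Values are log2 signals, so a difference of 1 is a 2-fold change. The inhibitor effect is the log2 fold change (FC) of the 7 inhibitor arrays against the 8 vehicle arrays with the antibody as a covariate, given with its standard error (SE), and a gene was called at an adjusted p under 0.05 by limma. Levels are given as the lowest, median and highest array. The same effect was also fitted apart in each background, as MEKi against control and as combination against CD40 Ab. These 2 comparisons share no array.

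Skeletal muscle content and 18S signal moved with the inhibitor. Skeletal muscle genes were higher in every inhibitor array: the mean level of 20 genes ran from 7.54 to 10.21 there and from 4.77 to 6.88 in vehicle arrays, with MEKi array 1 the highest. Control probes for 18S ribosomal RNA gave a log2 signal of 13.26 ± 0.10 (SD, n = 7) in inhibitor arrays and 12.92 ± 0.13 (SD, n = 8) in vehicle arrays (exact permutation test within backgrounds, two-sided, p = 0.00041, the smallest that 2450 assignments allow, adjusted 0.0029 over 7 measures). For the other 6 measures, among them Gapdh, the Gapdh 3′ minus 5′ signal and the spike-ins, adjusted p lay between 0.0876 and 0.921. The animal numbers in the labels formed 2 series, 1 below and 1 above 10000: all 4 combination tumors lay in the lower and all 3 MEKi tumors in the upper series, with 5 and 3 of the vehicle tumors. Within the inhibitor arrays the number series and the antibody therefore cannot be told apart. Krt19, the ductal keratin gene that marks pancreatic ductal tumor cells, gave a signal of 13.05 to 13.59 in all 15 arrays. Krt19 alone does not give the share of tumor cells, and Epcam, another epithelial gene, ran from 6.67 to 11.42.

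The inhibitor moved a large part of the transcriptome. Of 18193 genes, 2283 were higher (12.5%) and 2705 lower (14.9%), with a median log2 FC of -0.04 over all genes. The rises were the larger changes: 478 genes rose and 103 fell by 2-fold or more. In 1410 genes (7.75%) the 7 inhibitor arrays did not overlap the 8 vehicle arrays, 658 above and 752 below them. Without antibody 3847 genes passed (21.1%), and under antibody 1131 (6.22%). Under antibody the split over probe sets was 1144 higher and 875 lower, and 1036 higher and 1248 lower once each array was centred on its median. A total of 722 genes (3.97%) passed in both backgrounds in the same direction, 425 higher and 297 lower, which was 18.8% of the calls without antibody and 63.8% of those under antibody, and 4 passed in opposite directions. Across all genes, which are not independent replicates, the log2 FC of both backgrounds correlated with a Pearson r of 0.67 and a Spearman rho of 0.52.

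These counts changed with the muscle signal and within each number series alone. With the mean levels of the muscle list and of a skin and hair keratinocyte list as covariates, 211 probe sets passed in place of 9584, in a fit whose standard errors were 2 times as wide from the overlap of covariates and treatment alone. With the number series as a covariate 9541 probe sets passed, 9185 of them shared with the main effect. Within the lower series alone 6002 passed, and within the upper series alone 2486. These 2 within-series fits, here and below, had no antibody term. In the lower series all inhibitor tumors and 2 of 5 vehicle tumors had the antibody. In the upper series no inhibitor tumor and 2 of 3 vehicle tumors had it. The part of muscle tissue and of the number series in the results below was not tested beyond these values.

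Transcripts that report ERK activity were lower in inhibitor tumors. Of 21 measured genes of an ERK output list, 10 fell, 1 rose and 10 did not pass, against 14.9% and 12.5% of all genes, and the list median was -0.30. The mean level of the list ran from 8.35 to 8.72 in inhibitor arrays and from 8.75 to 9.04 in vehicle arrays, so the groups did not overlap. The nearest arrays were MEKi array 1 (8.72) and CD40 Ab array 4 (8.75), where Hmga2, a member of the list, lay at 7.98 and 10.53. This narrow gap rests on Hmga2, and the mean levels of the other members overlap. The list median was -0.05 without antibody and -0.43 under it, and 2 members differed between backgrounds, both with the lower value under antibody. With muscle and skin levels as covariates the median was -0.44 and the members that fell went from 10 to 2. Within the lower number series 14 members fell (median -0.49), and within the upper 4 fell and the median was 0.00. These within-series fits had no antibody term, so they also hold the antibody difference between the tumors compared.

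Hmga2, which encodes an architectural chromatin protein of embryonic and tumor cells, had the smallest adjusted p of all genes. Its signal was 10.47, 10.65 and 10.84 (lowest, median, highest) in vehicle arrays and 7.98, 8.39 and 8.64 in inhibitor arrays. The gap between both ranges was wider than the spread within either of them. The inhibitor effect was -2.25 ± 0.09 (SE, adjusted p = 5.45e-09), and it was nearly the same without antibody (-2.26) and under it (-2.25), with all 4 Hmga2 probe sets called lower. Hmga2 kept a log2 FC of -1.92 with muscle and skin as covariates (adjusted p = 0.00036), and it fell by 2.29 within the lower and by 2.19 within the upper number series.

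The PEA3 factors and a nuclear ERK phosphatase followed. Etv5 lay between 8.35 and 8.68 in vehicle arrays and between 7.70 and 7.94 in inhibitor arrays (-0.70 ± 0.06, adjusted p = 3.12e-06). Etv4 went from 7.67 to 8.09 in vehicle arrays to 7.11 to 7.57 in inhibitor arrays (-0.56 ± 0.06, adjusted p = 3.42e-05). Dusp4, the phosphatase that inactivates ERK in the nucleus, fell from 8.09, 8.58 and 8.98 to 7.19, 7.70 and 7.89 (-0.90 ± 0.14, adjusted p = 0.000376). In each of these 3 genes the ranges did not overlap, and each passed in both backgrounds. Etv5 still passed with muscle and skin as covariates (-0.89, adjusted p = 0.0036), while Etv4 (-0.53) and Dusp4 (-0.66) did not. Spred2 (-0.55) and Spred3 (-0.62), encoding inhibitors of RAF activation and named here after their values were seen, fell too.

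Other reporters of ERK were less uniform. Dusp6, the cytoplasmic ERK phosphatase, was at 10.69 to 10.97 in vehicle arrays, at 11.05, 10.40 and 10.78 in MEKi arrays 1, 2 and 3, and at 10.18 to 10.37 in combination arrays. Only the combination arrays were all below the vehicle arrays, and the effect was -0.05 without antibody and -0.52 under it, where it passed. The main effect was -0.30 ± 0.10 (adjusted p = 0.0378), and the difference between backgrounds did not pass (-0.46, adjusted p = 0.135). Fosl1, the AP-1 subunit Fra-1, went from 8.75, 8.92 and 9.19 to 7.50, 8.11 and 8.93 (-0.69 ± 0.14, adjusted p = 0.0031), with MEKi arrays up to 8.93 and combination arrays up to 8.11. Spry4, a Sprouty feedback inhibitor, gave a main effect of -0.03 (adjusted p = 0.92), with a log2 FC of 0.45 without antibody and -0.43 under it. This difference passed (-0.88, adjusted p = 0.0429). Spry1 was the member that rose (0.38 ± 0.12, adjusted p = 0.0309). Ccnd1, encoding cyclin D1, stayed within 11.62 to 11.78 on all 15 arrays (-0.02, adjusted p = 0.787), and Myc (-0.17, adjusted p = 0.127) and Egr1 (-0.42, adjusted p = 0.181) did not pass.

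**Figure D1:**
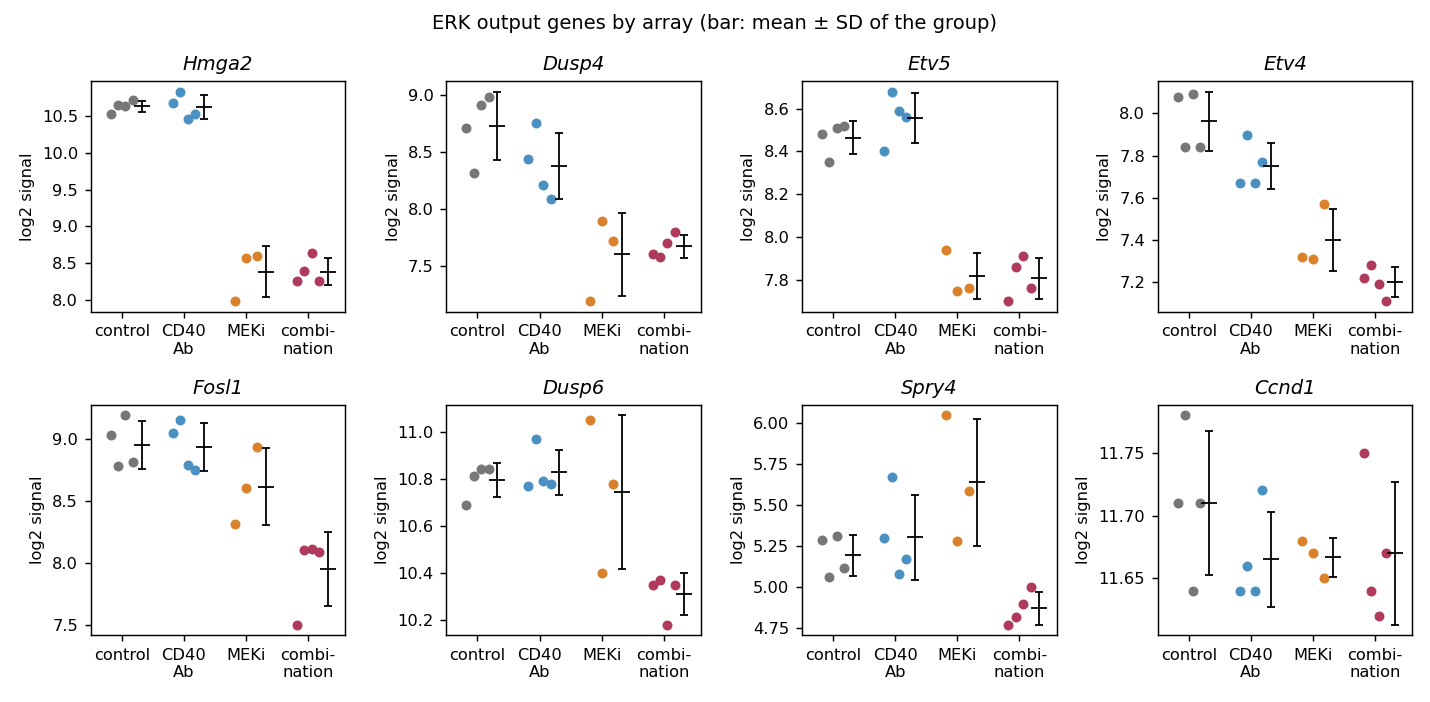
Log2 signal (vertical axis) of 8 ERK output genes in each array of the control, CD40 Ab, MEKi and combination groups, with the mean ± SD of the group beside the points. Hmga2, Dusp4, Etv5 and Etv4 separate inhibitor from vehicle arrays in both backgrounds, Fosl1, Dusp6 and Spry4 are lowest in the combination arrays, and Ccnd1 stays within 11.62 to 11.78.

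Changes in genes of the pathway itself were small, with log2 FC from -0.45 to 0.44. Of 21 measured components from RAS to ERK, 1 rose (4.76%) and 6 fell (28.6%), with a median of -0.08. Of all genes 12.5% rose and 14.9% fell. Map2k1, which encodes the drug target MEK1, went from 10.73, 10.93 and 11.08 in vehicle arrays to 9.81, 10.56 and 10.77 in inhibitor arrays (-0.45 ± 0.11, adjusted p = 0.010), but its log2 FC was -0.03 with muscle and skin as covariates. Map2k2, encoding MEK2, did not pass (0.06, adjusted p = 0.439). Shoc2, whose product holds RAF in its active form, fell by 0.39 with no overlap between groups (adjusted p = 5.13e-05), the exchange factor gene Sos2 fell by 0.27 (adjusted p = 0.00818), and the scaffold gene Ksr1 rose by 0.32 (adjusted p = 0.00132).

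Receptor tyrosine kinases, the entry points of the pathway, were more often higher than lower. Of 25 measured receptor genes 8 rose and 1 fell, with a median of 0.30, which was 0.33 without antibody and 0.07 under it, against 12.5% of all genes higher and 14.9% lower. In the fit with muscle and skin as covariates no receptor gene rose, 1 fell and the median was 0.00. Within the number series 4 rose in the lower (median 0.14) and 7 in the upper (median 0.07). Fgfr3, a fibroblast growth factor receptor gene, lay at 5.77, 6.12 and 6.94 in vehicle arrays and at 7.47, 7.66 and 8.46 in inhibitor arrays, with no overlap (1.64 ± 0.17, adjusted p = 2.59e-05). Fgfr1 rose from 6.30, 7.52 and 7.72 to 7.84, 8.56 and 9.56 (1.42 ± 0.21, adjusted p = 0.0003). The platelet-derived growth factor receptor gene Pdgfra, also in the fibroblast list, rose by 1.03 (adjusted p = 0.00405). Among the epidermal growth factor receptors Erbb3 rose by 0.74 (adjusted p = 0.0256) and Egfr by 0.61 (adjusted p = 0.00741), but of 7 Egfr probe sets 1 was called higher and 1 lower. Axl, the receptor for Gas6, was the member that fell: its 8 vehicle arrays lay between 10.01 and 10.22 and its 7 inhibitor arrays between 8.89 and 9.90 (-0.61 ± 0.11, adjusted p = 0.00111). Axl was the member that passed with muscle and skin as covariates (-0.95, adjusted p = 0.0074).

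Ligand genes for these receptors moved both ways, with 6 of 23 higher and 4 lower (median 0.03), against 12.5% and 14.9% of all genes. With muscle and skin as covariates 1 ligand gene passed. Pdgfd rose by 2.43 (adjusted p = 9.17e-05), Igf1, the insulin-like growth factor gene, by 2.06 (adjusted p = 0.000179) and Gas6 by 1.47 (adjusted p = 0.00122). Igf1 was at 6.23, 7.10 and 7.38 in vehicle arrays and at 8.10, 8.75 and 11.04 in inhibitor arrays, so the groups did not overlap. Kitl, encoding stem cell factor, fell by 0.80 (adjusted p = 6.39e-05) and Pdgfc by 0.69 (adjusted p = 0.000472), both without overlap. Btc, encoding the EGFR ligand betacellulin, fell by 1.55 (adjusted p = 0.00207): the log2 FC was -0.58 without antibody and -2.38 under it, a difference that passed (adjusted p = 0.0242).

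Genes of mitosis fell as a group. All 23 measured members of the mitosis and G2/M list passed and were lower, against 14.9% of all genes, with a median of -0.94. The list level ran from 6.79 to 8.54 in inhibitor arrays and from 8.59 to 9.15 in vehicle arrays, so the ranges were separate, and MEKi array 1 was the lowest by far. For Aurka, the centrosome kinase, vehicle arrays lay at 8.09, 8.51 and 8.94 and inhibitor arrays at 5.93, 7.44 and 8.03 (-1.27 ± 0.23, adjusted p = 0.00132). Kif20a, a kinesin of cytokinesis, fell by 1.30 ± 0.28 (adjusted p = 0.00369) and Ccnb2, encoding cyclin B2, by 1.20 ± 0.28 (adjusted p = 0.00668). The proliferation marker gene Mki67 went from 9.94, 10.34 and 10.60 to 8.91, 9.75 and 9.99 (-0.63 ± 0.16, adjusted p = 0.0105), and its groups overlapped. In each background the median was negative, -1.23 without antibody and -0.71 under it, but 14 and 3 members passed there. No member passed with muscle and skin as covariates (median -0.23), while without MEKi array 1 all 23 still passed (median -0.76). Within the lower number series 23 passed and within the upper 1.

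Of 25 measured DNA replication genes 2 fell, a share below the 14.9% of all genes: Tk1 (-0.56, adjusted p = 0.0336) and Pola1 (-0.44, adjusted p = 0.0458). The median was -0.12. Without MEKi array 1 no member passed and the median was 0.00, and within the lower number series 8 fell while none passed within the upper. Among G1 regulators 2 of 23 rose and 5 fell, against 12.5% and 14.9% of all genes, and none passed with muscle and skin as covariates. Cdkn1a, encoding the CDK inhibitor p21, went from 7.93, 8.23 and 8.68 to 8.48, 9.17 and 9.24 (0.77 ± 0.13, adjusted p = 0.00104), and Cdk6 rose by 0.27 (adjusted p = 0.0147). The other CDK inhibitor genes that passed were lower: Cdkn2b, encoding p15, by 0.64 (adjusted p = 0.00102), Cdkn2d by 0.58 (adjusted p = 0.00558), Cdkn2c by 0.39 (adjusted p = 0.00278) and Cdkn1b, encoding p27, by 0.38 (adjusted p = 0.0131). For Cdkn1b the fall was 0.69 without antibody and the log2 FC under it was -0.10, a difference that passed (adjusted p = 0.0232).

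Promoters of the mitotic genes are shown because these genes fell together. Many genes of G2 and mitosis carry a CHR element near their start, at which the DREAM and MuvB complexes are known to bind. In RefSeq promoters of GRCm38.p6 (250 bases before to 50 after the first listed start), available at full length for 14452 of the 18193 genes, the CHR letters TTTGAA were found on either strand in 13 of 18 mitosis promoters (72.2%) and in 13.3% of all promoters. Among DNA replication promoters 2 of 21 (9.52%) held them. The CCAAT box (CCAAT) was in 16 of the 18 mitosis promoters (88.9%), in 15 of 21 replication promoters (71.4%) and in 38.2% of all. A match is a description of these letters and not a binding site. The 120 bases before the start are given 5′ to 3′ for the 4 mitosis genes whose matches all lie in them, chosen after their values were seen, with the CHR letters or their reverse complement in capitals:
Cdk1, chr10:69352913-69353032, minus strand: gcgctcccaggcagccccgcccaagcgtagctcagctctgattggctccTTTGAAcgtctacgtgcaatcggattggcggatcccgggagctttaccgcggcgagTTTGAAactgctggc
Cdc20, chr4:118437344-118437463, minus strand: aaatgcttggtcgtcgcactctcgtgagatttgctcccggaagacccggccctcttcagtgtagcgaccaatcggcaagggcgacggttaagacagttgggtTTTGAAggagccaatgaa
Kif11, chr19:37376262-37376381, plus strand: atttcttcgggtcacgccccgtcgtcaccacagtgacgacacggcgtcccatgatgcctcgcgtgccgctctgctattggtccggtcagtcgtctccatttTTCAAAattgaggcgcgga
Mki67, chr7:135716380-135716499, minus strand: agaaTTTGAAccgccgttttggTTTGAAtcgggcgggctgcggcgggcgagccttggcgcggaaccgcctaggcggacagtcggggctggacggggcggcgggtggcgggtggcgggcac
The inhibitor effect was -0.76 for Cdk1, the main mitotic kinase, -0.91 for Cdc20, the activator of the anaphase complex, -0.94 for Kif11, the spindle kinesin, and -0.63 for Mki67, and all 4 passed.

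Of the 13 ERK output promoters at full length, none held the ETS letters CCGGAAG, against 13.8% of all promoters, and 1 held the AP-1 letters TGANTCA, against 6.33%. This says only that these letters are not in these windows.

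Survival and stress genes moved both ways. Of 14 measured BCL2 family genes 3 rose and 3 fell, against 12.5% and 14.9% of all genes. Bcl2, encoding the antiapoptotic founder of the family, fell from 9.11, 9.22 and 9.29 to 8.76, 8.83 and 9.02 without overlap (-0.36 ± 0.05, adjusted p = 9.45e-05), while antiapoptotic Mcl1 rose by 0.21 (adjusted p = 0.016). Bcl2l11, which encodes the ERK-regulated death protein BIM, did not pass at its chosen probe set (-0.22, adjusted p = 0.0764). Of its 5 probe sets, however, 3 were called lower and none higher. Among p53 target genes 6 of 13 rose and none fell, against 12.5% and 14.9% of all genes, with a median of 0.22. None of the 13 passed with muscle and skin as covariates (median 0.24). Those that rose included the antiproliferative gene Btg2 (0.80, adjusted p = 0.000636) and Eda2r (0.77, adjusted p = 0.0126). Cdkn1a and Btg2 also stand in other lists used here. Within the immediate early list 6 of 20 rose and 3 fell, against 12.5% and 14.9% of all genes. Zfp36, encoding an RNA decay factor, rose by 0.54 (adjusted p = 0.00603) and the stress factor gene Atf3 fell by 0.90 (adjusted p = 0.00374).

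Cholesterol synthesis genes were lower: 9 of 16 fell and none rose, against 14.9% and 12.5% of all genes, with a median of -0.51. Within the lower number series 12 fell, and within the upper none passed (median -0.39). Idi1 (-0.69, adjusted p = 0.0442), Sqle (-0.65, adjusted p = 0.0387) and Msmo1 (-0.63, adjusted p = 0.0344) fell the most. All 16 had the same sign in both backgrounds, where 1 passed without antibody and none under it. With muscle and skin as covariates none passed and the median was -0.03, and without MEKi array 1 the number that fell was 5. Hypoxia and glycolysis genes gave no call (0 of 14, median -0.29), and the inhibitor arrays of that list spread from 9.85 to 11.22. Of 18 ribosome biogenesis genes 2 were lower, a share below the 14.9% of all genes. Their median of -0.02 was made up of 0.22 without antibody and -0.18 under it. Of the 18, 5 differed between backgrounds with the lower value under antibody, against 4.56% of all genes that differed. In the lysosome and autophagy list 5 of 21 rose and 6 fell, against 12.5% and 14.9% of all genes. Ctsh, encoding cathepsin H, rose from 10.04, 10.34 and 10.70 to 11.47, 11.63 and 11.85 without overlap (1.31 ± 0.09, adjusted p = 1.13e-06), and Sqstm1, encoding the autophagy receptor p62, fell by 0.61 (adjusted p = 0.000252). Both passed also with muscle and skin as covariates, at 0.95 (adjusted p = 0.0049) and -0.72 (adjusted p = 0.0323).

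The strongest changes were taken from the 645 genes that passed, separated the arrays and were called in both backgrounds in the same way, 379 higher and 266 lower. Myh1, the gene of a fast muscle myosin, led the rises (4.62 ± 0.72, adjusted p = 0.000483), and the sarcomere gene Ttn rose nearly as far (4.08 ± 0.58, adjusted p = 0.000256). Both belong to the muscle list, and with muscle and skin as covariates their log2 FC was 0.58 and 0.72. Igfbp2, which encodes a binding protein for insulin-like growth factors, stood between them: its vehicle arrays were at 3.53, 4.69 and 6.42 and its inhibitor arrays at 6.76, 9.25 and 11.52 (4.45 ± 0.51, adjusted p = 5.05e-05). Ogn, encoding the matrix proteoglycan osteoglycin, rose by 3.95 ± 0.51 (adjusted p = 0.000106). Pamr1, whose product is a secreted protease-like protein, showed the most even rise: vehicle arrays lay at 4.82, 5.19 and 6.05 and inhibitor arrays at 7.84, 8.58 and 9.12 (3.32 ± 0.19, adjusted p = 2.03e-07), with 3.32 without antibody and 3.33 under it.

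The remaining 3 large rises were epithelial or without a settled role. Pigr, the receptor that carries polymeric immunoglobulin across epithelia, rose from 4.65, 7.06 and 8.05 to 9.18, 10.22 and 11.45 (3.21 ± 0.44, adjusted p = 0.000173). Olfm4, encoding a secreted glycoprotein of intestinal crypts and neutrophils, rose from 6.77, 7.45 and 7.97 to 9.55, 10.56 and 11.75 (3.18 ± 0.25, adjusted p = 2.74e-06). The unnamed transcript 2210407C18Rik rose by 3.17 ± 0.32 (adjusted p = 1.72e-05).

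Dynap led the falls, from 7.00, 7.98 and 9.47 in vehicle arrays to 3.29, 4.20 and 5.02 in inhibitor arrays (-4.0 ± 0.37, adjusted p = 9.88e-06). Kcnab1, encoding a subunit of voltage-gated potassium channels, fell from 7.45, 7.84 and 8.47 to 4.16, 4.82 and 5.21 (-3.08 ± 0.18, adjusted p = 2.15e-07). The synaptic vesicle gene Synpr fell by 3.05 ± 0.28 (adjusted p = 8.76e-06), Clca3a1 of the calcium-activated chloride channel regulators by 2.50 ± 0.16 (adjusted p = 5.12e-07) and the urea transporter gene Slc14a1 by 2.47 ± 0.22 (adjusted p = 5.84e-06). Mcpt8, a protease gene of basophils, lay at 8.17, 9.17 and 9.49 in vehicle arrays and at 6.07, 6.56 and 6.81 in inhibitor arrays (-2.40 ± 0.21, adjusted p = 6.05e-06). Glod5 (-2.36 ± 0.25) and Klhl1 (-2.30 ± 0.25) completed these 8 genes.

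All 16 of these rises and falls passed within the lower number series and 13 within the upper. With muscle and skin as covariates 7 of the 16 passed: Pamr1 (2.70), Olfm4 (2.85), 2210407C18Rik (3.30), Kcnab1 (-3.22), Clca3a1 (-2.18), Synpr (-2.94) and Slc14a1 (-2.75). Of 161 named genes that passed, 13 passed in that fit. Kcnab1 fell further without antibody (3.66 against 2.59, difference 1.07, adjusted p = 0.0341), and so did Klhl1 (3.17 against 1.54, difference 1.63, adjusted p = 0.00852).

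**Figure D2:**
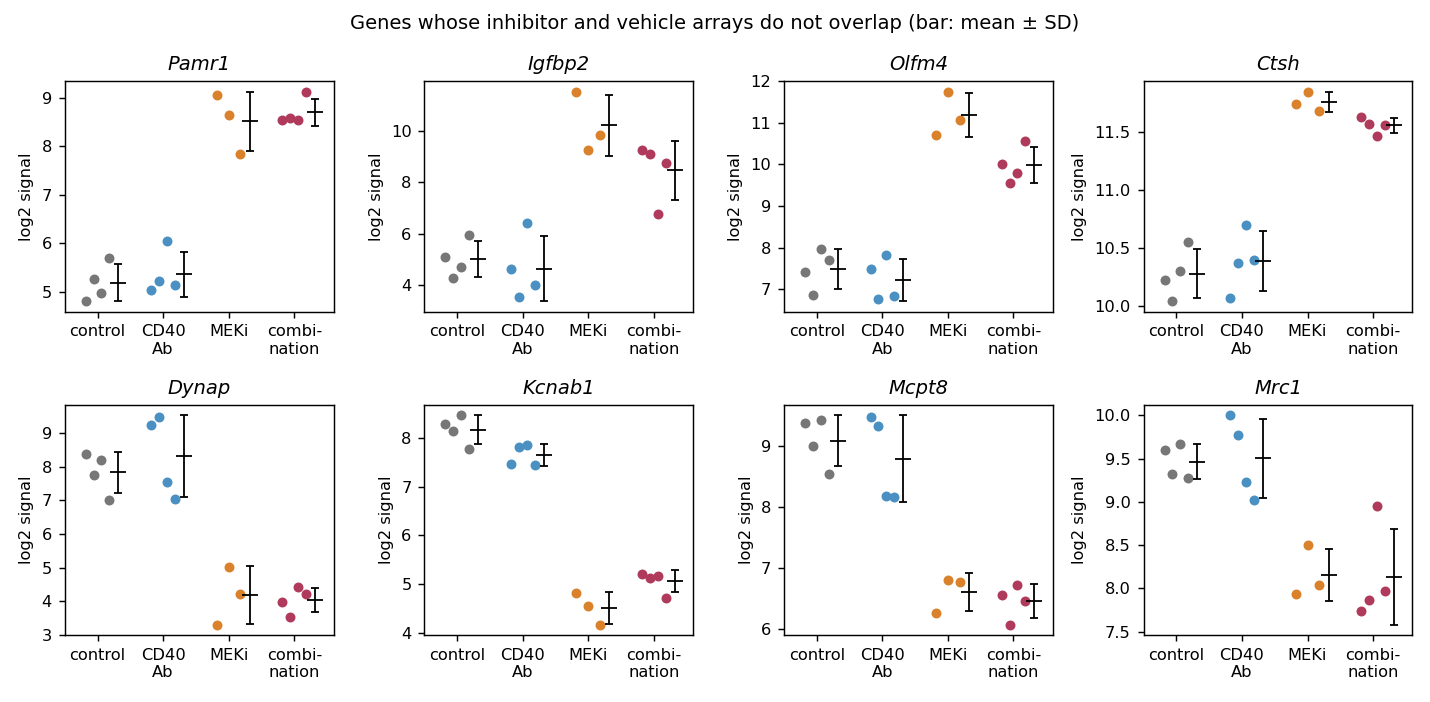
Log2 signal (vertical axis) of 8 genes in each array of the 4 groups, with the mean ± SD of the group beside the points. Pamr1, Igfbp2, Olfm4 and Ctsh are above, and Dynap, Kcnab1, Mcpt8 and Mrc1 below, every vehicle array in all 7 inhibitor arrays.

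Epithelial and ductal genes of the tumor changed in part. Of 15 measured members 8 rose and 1 fell (median 0.24), against 12.5% and 14.9% of all genes. The list level was 9.48 to 10.01 in inhibitor and 8.67 to 9.47 in vehicle arrays. No member passed with muscle and skin as covariates (median 0.36). Besides Pigr, the metalloproteinase gene Mmp7 rose from 5.54, 6.23 and 8.12 to 6.79, 9.63 and 10.17 (2.35 ± 0.31, adjusted p = 0.00015), with 1.50 without antibody, 3.07 under it and no passed difference (adjusted p = 0.105). Epcam, encoding an epithelial adhesion protein, rose by 2.17 ± 0.43 (adjusted p = 0.00228), and Krt19 by 0.22 ± 0.06 (adjusted p = 0.0204). The duct factor gene Sox9 fell by 0.44 (adjusted p = 0.00151). Of 10 mesenchymal transition genes 2 rose and 2 fell, against 12.5% and 14.9% of all genes. Cdh2, encoding N-cadherin, fell by 1.10 ± 0.18 (adjusted p = 0.000775), by 1.79 without antibody and by 0.50 under it, and this difference passed (adjusted p = 0.00128). Vim, encoding vimentin, fell by 0.18 (adjusted p = 0.0189). Among YAP and TEAD targets, led by Ccn1 (0.95 ± 0.20, adjusted p = 0.00319), 5 of 12 rose and 1 fell, against 12.5% and 14.9% of all genes.

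Stromal genes rose. In the fibroblast and matrix list 20 of 24 members were higher and none lower, against 12.5% of all genes, with a median of 1.01. The list level was 9.97 to 11.62 in inhibitor arrays and 8.97 to 9.95 in vehicle arrays. Col1a1, a chain of type I collagen, went from 9.69, 10.28 and 10.49 to 10.80, 11.59 and 12.67 (1.48 ± 0.17, adjusted p = 4.28e-05), without overlap. Dpt, encoding dermatopontin of the dermal matrix, rose by 2.70 ± 0.50 (adjusted p = 0.00159) and the matricellular gene Thbs2 by 1.81 ± 0.23 (adjusted p = 9.35e-05). Smooth muscle and pericyte genes rose in 8 of 12 cases (median 0.77), against 12.5% of all genes, among them Tagln (1.72 ± 0.23, adjusted p = 0.000166). Muscle level moved with both lists, and with muscle and skin as covariates no member of either passed, at medians of 0.86 and 0.41. For fibroblast genes 7 members passed within the lower and 18 within the upper number series.

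Endothelial genes showed no common direction, with 1 of 16 higher and 2 lower (median 0.04), shares below the 12.5% and 14.9% of all genes. Cldn5, the tight junction gene of endothelium, fell from 7.28, 7.50 and 8.29 to 5.71, 6.19 and 6.54 without overlap and in both backgrounds (-1.46 ± 0.15, adjusted p = 1.99e-05), and Vwf fell by 0.63 (adjusted p = 0.014).

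Other tissues of the implantation site differed between arrays. All 20 measured skeletal muscle genes rose, 17 without overlap, with a median of 2.75, of 2.27 without antibody and of 3.07 under it. Skin and hair keratinocyte genes had a median of 0.87, with 3 of 15 higher, against 12.5% of all genes. Their list level was 7.15 to 7.79 in the 3 MEKi arrays, 6.46 in control array 4 and 5.88 in CD40 Ab array 3, and 4.70 to 5.38 in the other 10 arrays. The median was therefore 1.76 without antibody and -0.15 under it, and 6 of the 15 genes differed between backgrounds. Adipocyte genes gave 1 call in each direction of 10, nerve and Schwann cell genes 2 higher and 1 lower of 6, and red blood cell genes none of 3. Of all genes 12.5% rose and 14.9% fell.

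**Figure D3:**
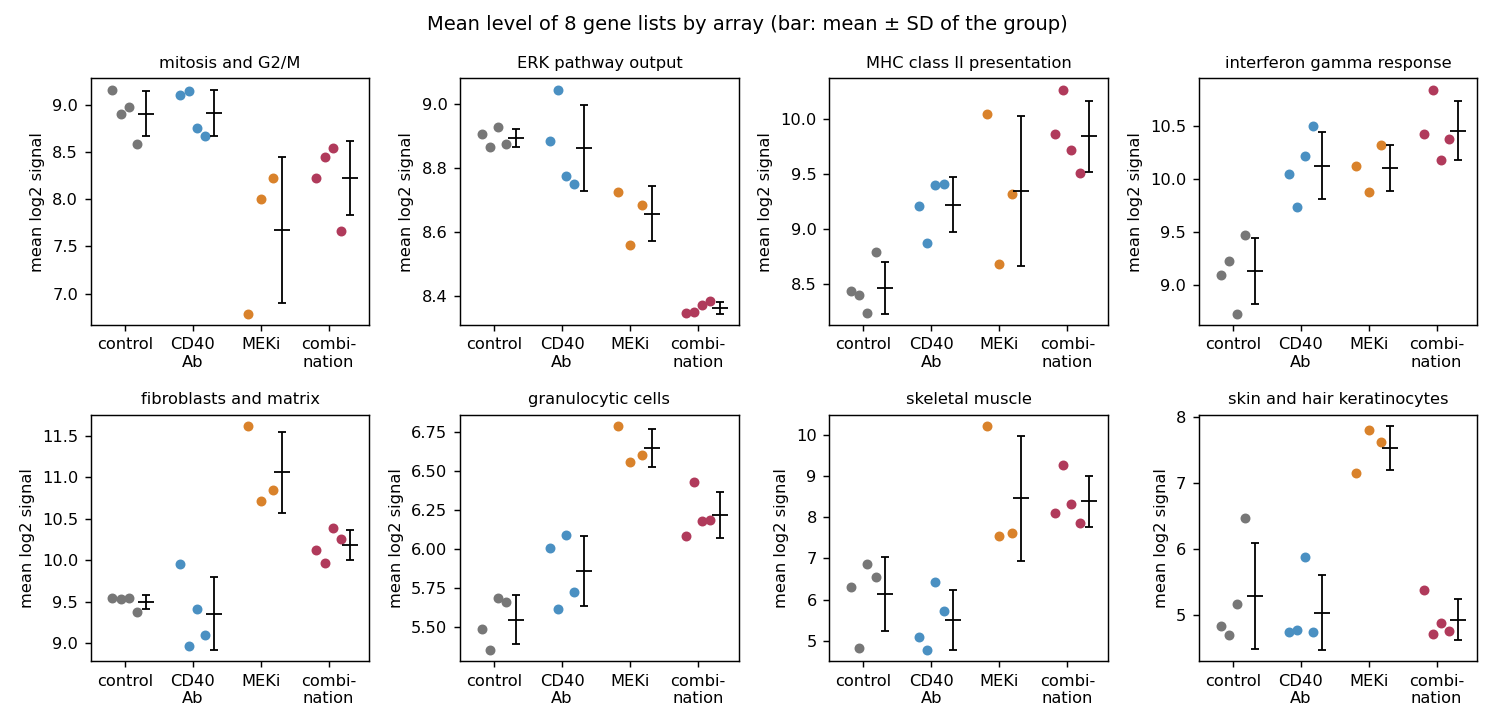
Mean log2 signal (vertical axis) of the measured genes of 8 lists in each array of the 4 groups, with the mean ± SD of the group beside the points. Mitosis, ERK output, fibroblast and skeletal muscle levels separate all 7 inhibitor from all 8 vehicle arrays, ERK output only with Hmga2 in the list. Granulocytic, MHC class II and interferon gamma levels overlap, and skin levels are high in the MEKi arrays.

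Antigen presentation and interferon gamma genes were higher in inhibitor tumors. Of 11 MHC class II genes 9 rose and none fell (median 0.67), of 12 MHC class I genes 6 rose (median 0.45) and of 18 interferon gamma response genes 14 rose (median 0.60), against 12.5% of all genes. Cd74, the invariant chain, went from 10.56, 11.47 and 12.21 to 11.74, 12.41 and 12.73 (0.87 ± 0.17, adjusted p = 0.00188). Ciita, the master regulator of MHC class II transcription, rose by 0.96 ± 0.17 (adjusted p = 0.00101) and H2-DMb2, encoding a peptide loading chain, by 1.43 ± 0.25 (adjusted p = 0.000952). The peptide transporter gene Tap2 rose by 0.84 ± 0.17 (adjusted p = 0.00325). Cxcl10, a ligand of the chemokine receptor CXCR3, rose from 7.82, 8.80 and 10.06 to 9.76, 10.50 and 11.07 (1.50 ± 0.27, adjusted p = 0.00129). Cd274, encoding PD-L1, rose by 0.58 ± 0.19 (adjusted p = 0.0368). No member of these 3 lists separated the inhibitor from the vehicle arrays. None of their members passed with muscle and skin as covariates, and the medians were 0.02 for MHC class II, 0.16 for class I and 0.31 for interferon gamma genes.

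These lists gave different counts within each number series. Within the lower series, where all inhibitor tumors also had the antibody and 2 of 5 vehicle tumors did, 10 MHC class II, 8 class I and 13 interferon gamma genes rose, with medians of 1.31, 0.78 and 1.01. Within the upper series none of the 3 lists had a member that passed, with medians of 0.03, -0.07 and 0.07. There the inhibitor tumors had no antibody and 2 of 3 vehicle tumors had it. In the separate backgrounds the interferon gamma median was 0.99 without antibody, where 13 passed, and 0.31 under it, where 1 passed. No member of the 3 lists differed between backgrounds past the threshold. Type I interferon genes gave 4 rises and 1 fall of 21 (median 0.25), against 12.5% and 14.9% of all genes. There were 10 rises within the lower number series and none within the upper. With muscle and skin as covariates no type I interferon gene passed (median 0.06).

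Promoters of interferon gamma genes are shown for the same reason. IRF and STAT factors are known to act on them through repeats of GAAA, and the letters GAAANNGAA were found on either strand in 10 of 14 promoters of this list (71.4%) and in 7.36% of all promoters. The MHC class II Y box letters CTGATTGG, which contain the reverse complement of the CCAAT box, were in 3 of 8 MHC class II promoters (37.5%), in 6 of 18 mitosis promoters (33.3%) and in 5.36% of all. For 4 of the 8 interferon gamma genes whose matches all lie there, chosen after their values were seen, the 120 bases before the start follow 5′ to 3′, with the letters GAAANNGAA or their reverse complement in capitals:
Gbp2, chr3:142620543-142620662, plus strand: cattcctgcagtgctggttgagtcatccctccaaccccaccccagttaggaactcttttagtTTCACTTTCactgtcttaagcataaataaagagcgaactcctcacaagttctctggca
Irgm1, chr11:48871421-48871540, minus strand: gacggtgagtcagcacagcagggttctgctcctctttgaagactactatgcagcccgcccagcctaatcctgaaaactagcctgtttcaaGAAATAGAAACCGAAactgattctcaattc
Socs1, chr16:10785537-10785656, minus strand: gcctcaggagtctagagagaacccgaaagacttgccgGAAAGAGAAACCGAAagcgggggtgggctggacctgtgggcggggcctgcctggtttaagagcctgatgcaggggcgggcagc
Cd274, chr19:29367318-29367437, plus strand: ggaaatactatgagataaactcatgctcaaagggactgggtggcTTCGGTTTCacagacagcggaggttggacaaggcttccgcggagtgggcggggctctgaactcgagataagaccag
Gbp2 (0.59) and Irgm1 (0.53), which encode interferon-inducible GTPases, and Socs1 (0.76), encoding a brake on cytokine receptors, rose as did Cd274.

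Chemokine genes were higher as well: 13 of 23 rose, 6 of them without overlap, and none fell (median 0.72), against 12.5% and 14.9% of all genes. Ccl20, the ligand of CCR6, rose by 2.47 ± 0.36 (adjusted p = 0.000275), by 3.60 without antibody, with a log2 FC of 1.50 under it and a passed difference (adjusted p = 0.0324). Ccl2, which draws monocytes, went from 7.90, 8.00 and 8.60 to 9.02, 9.79 and 10.48 (1.65 ± 0.19, adjusted p = 4.33e-05), and Cxcl5, which draws neutrophils, from 8.99, 9.65 and 10.10 to 10.21, 10.90 and 11.67 (1.36 ± 0.17, adjusted p = 7.84e-05). Both separated the arrays and passed in each background. Chemokine genes passed in both number series, with 11 members higher within the lower (0.62) and 8 within the upper (0.58). With muscle and skin as covariates 1 member passed (median 0.36).

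T cell genes rose in 8 of 16 cases, against 12.5% of all genes, and none fell (median 0.56). Bcl11b, a transcription factor gene of T cells that is also active in other tissues such as skin, was the member that separated the arrays, from 4.86, 5.43 and 6.09 to 6.31, 7.22 and 8.09 (1.79 ± 0.23, adjusted p = 0.000101). Cd8a, a coreceptor chain of cytotoxic T cells, overlapped, at 5.07, 5.71 and 6.38 against 5.36, 6.67 and 7.60 (0.84 ± 0.21, adjusted p = 0.00939). Cd3g (1.37, adjusted p = 0.00597) and Cd8b1 (1.36, adjusted p = 0.00496) rose too. Of 14 cytotoxic lymphocyte and NK genes 4 rose (median 0.45), among them the granule gene Nkg7 (1.20 ± 0.26, adjusted p = 0.00431) and Ifng, encoding interferon gamma (0.83 ± 0.23, adjusted p = 0.0207). Foxp3, the factor of regulatory T cells, gave -0.11 (adjusted p = 0.322), and 2 of 9 genes of that list rose, against 12.5% of all genes. B and plasma cell genes rose in 2 of 16 cases, the same share as the 12.5% of all genes. Within the upper number series 1 T cell gene and no cytotoxic gene passed. With muscle and skin as covariates the log2 FC of Cd8a was -0.09, and no member of the T cell or cytotoxic list passed.

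Most macrophage genes did not pass. Pan-macrophage genes gave 1 rise of 15 (Tyrobp, 0.62, adjusted p = 0.0155; median 0.29), the M2-like list 2 rises and 1 fall of 15 (median 0.14) and the M1-like list 3 rises of 13 (median 0.19), where 12.5% of all genes rose. No member of the 3 lists passed with muscle and skin as covariates, and within the lower number series 8 pan-macrophage genes rose while none passed within the upper. Mrc1, encoding the mannose receptor CD206 of M2-like macrophages, fell from 9.02, 9.46 and 10.00 to 7.74, 7.97 and 8.95 without overlap (-1.34 ± 0.18, adjusted p = 0.00018), by 1.30 without antibody and 1.37 under it. Both other passing genes of the M2-like list were higher: Chil3, encoding a chitinase-like protein of alternatively activated macrophages and neutrophils, rose from 2.82, 3.92 and 4.27 to 4.94, 7.01 and 8.94 (3.14 ± 0.47, adjusted p = 0.00034), and Retnla rose by 1.55 ± 0.42 (adjusted p = 0.0154). From the M1-like list Tnf rose by 0.69 ± 0.08 without overlap (adjusted p = 6.29e-05) and Il1b by 1.20 ± 0.24 (adjusted p = 0.00282), while Nos2 did not pass (0.15, adjusted p = 0.296). Cd40, the target of the antibody, rose by 0.48 ± 0.15 (adjusted p = 0.0347). Cd40 did not pass with muscle and skin as covariates (0.02), nor within the lower (0.56) or the upper number series (0.41).

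Granulocytic genes rose in 9 of 15 cases and 1 fell (median 0.62), against 12.5% and 14.9% of all genes. No granulocytic gene passed with muscle and skin as covariates, and the median was 0.12. Within the number series 7 rose in the lower and 6 in the upper. S100a8, a calprotectin chain of neutrophils, went from 6.87, 7.66 and 8.34 to 8.50, 8.92 and 10.78 (1.66 ± 0.30, adjusted p = 0.00149; 0.48, adjusted p = 0.759, with both covariates), and Lcn2, encoding lipocalin 2 of neutrophils and epithelia, from 8.31, 8.80 and 9.92 to 9.94, 10.90 and 12.10 (2.20 ± 0.34, adjusted p = 0.000453). S100a8 and Lcn2 separated the arrays. Elane, a primary granule gene, fell by 0.27 (adjusted p = 0.0129), at a low signal of 3.44 to 4.06 where the groups overlapped. In all, 5 members differed between backgrounds, all with the lower value under antibody, and the list median was 1.10 without antibody and 0.22 under it. Of 11 complement genes 5 rose (median 0.29), against 12.5% of all genes, led by Serping1 (1.19 ± 0.20, adjusted p = 0.000682). No complement gene passed with muscle and skin as covariates, and 8 rose within the lower but none within the upper number series. Dendritic cell genes rose in 2 of 11 cases and mast cell genes in 1 of 9, shares near the 12.5% of all genes. Without antibody, however, 7 of the 9 mast cell genes rose (median 0.93), where 21.1% of all genes passed in either direction. Under antibody 0 passed (median 0.02), and 3 mast cell genes differed between backgrounds with the lower value under antibody.

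**Figure D4:**
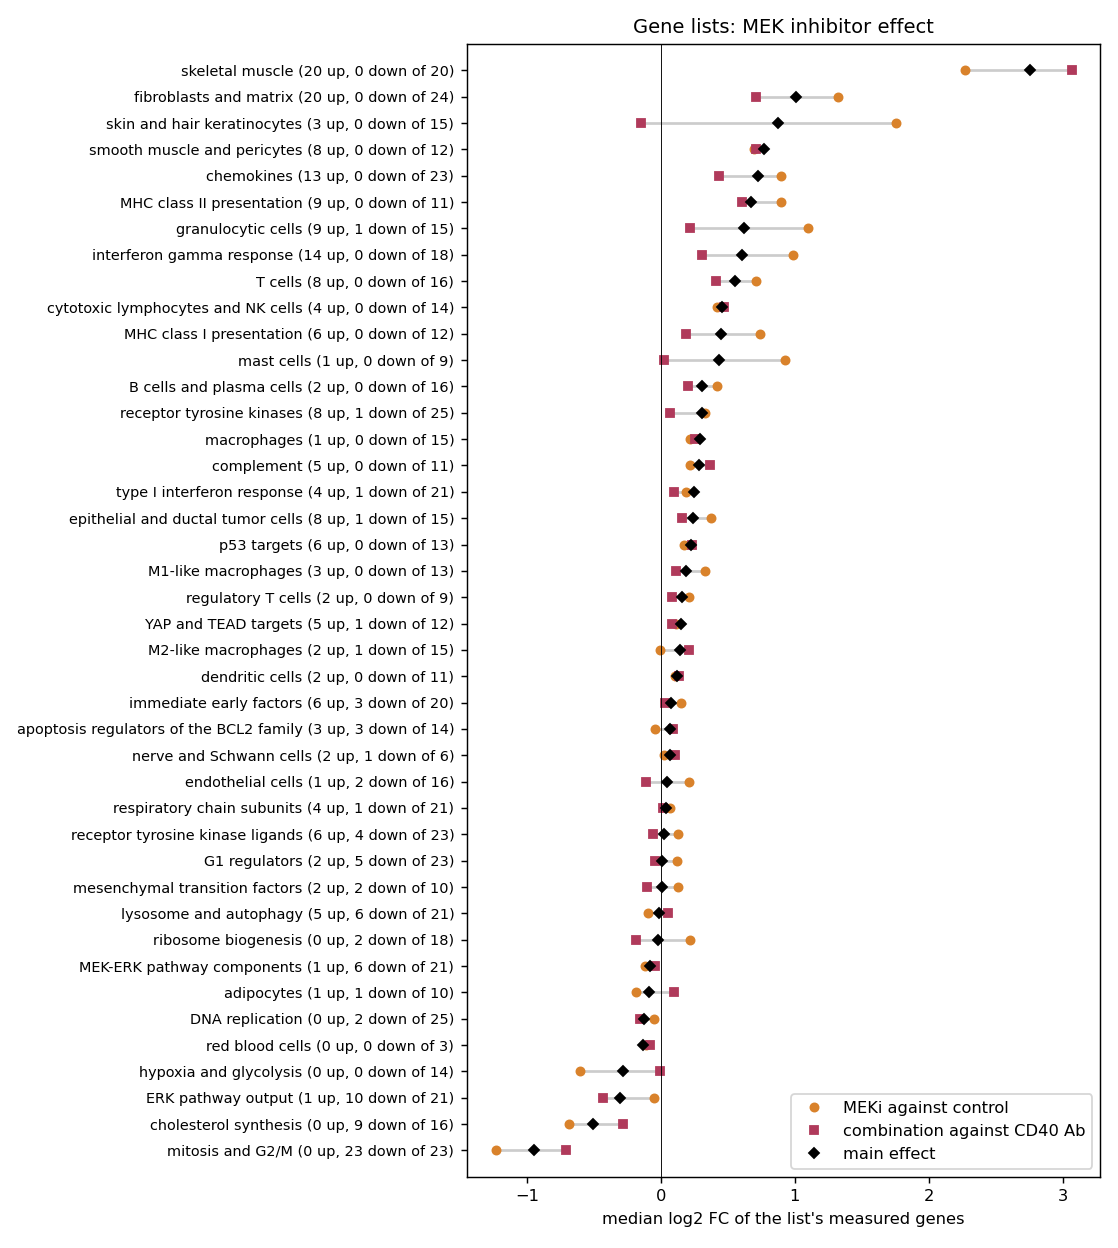
Median log2 FC (horizontal axis) of the measured genes of 42 lists for the main effect and for each background, with the number of members that passed higher and lower. Skeletal muscle (2.75) and fibroblast (1.01) lists have the highest main effect medians and mitosis (-0.94) the lowest, and the backgrounds lie furthest apart for skin.

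The size of the inhibitor effect depended on the background for part of the genes. Among the 4988 genes of the main effect, 3954 had the larger size without antibody, with a median size of 0.46 there and of 0.26 under antibody. The test of the difference itself passed for 829 genes (4.56%), 363 with the higher value under antibody and 466 with the lower. Of these, 452 were genes of the main effect, and in 13 of the 452 the backgrounds had opposite signs. The other 377 passed the test of the difference and not the main effect.

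The widest differences were those of hair genes. Krtap16-3, a keratin-associated protein of the hair shaft, was at 7.63, 8.40 and 8.37 in MEKi arrays 1, 2 and 3 and at 5.40 in control array 4, while the other 11 arrays lay between 2.02 and 2.45. The difference was -5.13 (adjusted p = 0.00281). Krtap19-3 (-3.96, adjusted p = 0.000882), Krt35 (-3.82, adjusted p = 0.0239) and Krtap19-2 (-3.73, adjusted p = 1.28e-05) followed. All 4 move with the skin and hair list, and MEKi is the group with high skin levels, so antibody background and skin content cannot be told apart for them.

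In the other direction, 4 genes had values higher under antibody. Lmcd1, encoding a LIM domain regulator of muscle and other tissues, was at 6.54 to 7.28 in the 11 arrays of the other groups and at 8.48 to 8.85 in the 4 combination arrays (difference 2.08, adjusted p = 0.000104). Uchl1, the ubiquitin hydrolase gene of neurons, fell in MEKi arrays to 4.84 to 5.29 and lay at 6.52 to 6.83 in combination arrays and 7.16 to 8.60 in vehicle arrays (difference 2.16, adjusted p = 0.00438). Acsbg1, an acyl-CoA synthetase gene, fell by 3.34 without antibody and by 1.34 under it (difference 2.00, adjusted p = 0.0304). Col11a1, a fibrillar collagen gene, fell by 2.49 without antibody, with a log2 FC of -0.21 under it (difference 2.27, adjusted p = 0.0326).

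**Figure D5:**
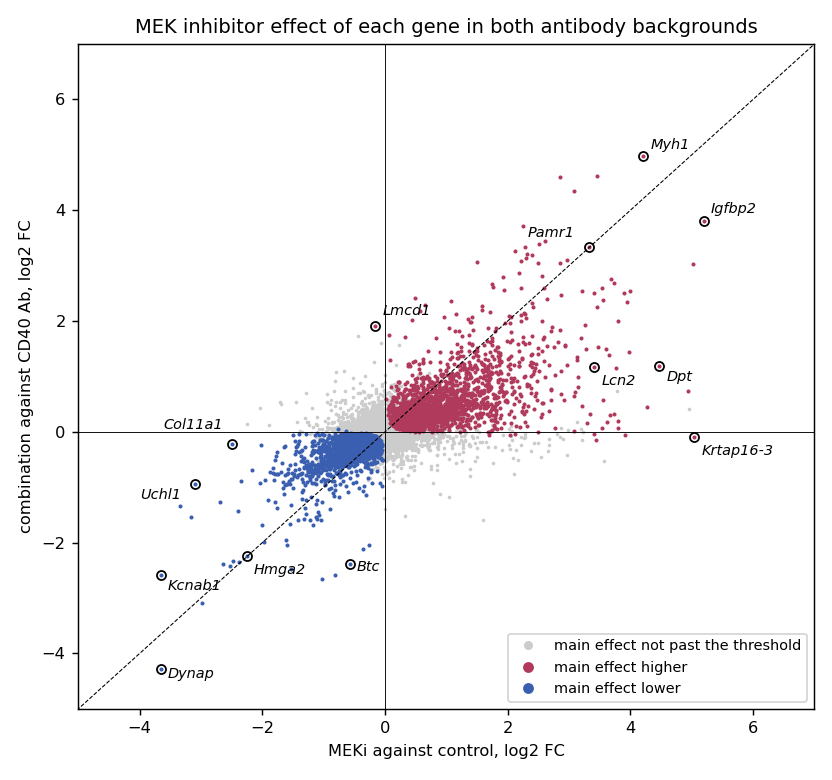
Log2 FC of each of 18193 genes without antibody (horizontal axis, MEKi against control) and under antibody (vertical axis, combination against CD40 Ab), coloured by the call of the main effect, with 13 genes circled. Hmga2 and Pamr1 lie on the dashed line of equal effects, while Krtap16-3, Dpt and Lcn2 lie below it and Lmcd1 and Col11a1 above it.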

How the data were processed

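RNA of whole snap-frozen tumors was hybridised to Affymetrix mouse genome arrays, 1 for each tumor. The authors normalized all arrays together by RMA, and the deposited table holds log2 values for each probe set. The RMA version is not given in the sources used here. Of 45101 probe sets, 64 controls were set aside, and 45037 were tested with limma 3.58.1 (lmFit and eBayes, R 4.3.3) with Benjamini-Hochberg adjustment over all of them and no fold minimum. Of these, 34945 had 1 gene symbol, 932 several and 9160 none. A gene (18193 in all) was represented by the single-symbol probe set of highest mean, and no probe set was removed for low signal. Replicates are separate tumors, and their number limits the precision. Nothing in the labels gives a hybridisation batch, and scan dates were not used.

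The members and the 42 gene lists (652 of 707 genes measured) were chosen with earlier results of these data known, so list counts carry no test. Genes were named by rule: the 8 largest rises and falls that passed in both backgrounds and separated the arrays, up to 3 passing members of each list in each direction, 28 measured genes of interest, and the 4 highest and lowest differences between backgrounds. Array measures were compared by exact permutation, two-sided, within backgrounds. Alternatives changed covariates, normalization, filters, thresholds and arrays. Each fit was also run on simulated data with known inhibitor changes and no true difference between backgrounds. Some genes of the pathway are not reported here.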

Additional observations from a re-analysis of the deposited data

Results flagged for a closer look

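Among groups of 4 arrays, the highest or lowest array stood far from the other 3 by Dixon's test in 6 of 126 list levels and 32 of 507 gene levels, and chance alone gives about 1 in 20. In combination array 1 the receptor tyrosine kinase list stood at 7.49 (next 7.44), Fosl1 at 7.50 (next 8.09) and Krtap8-1 at 6.97 (next 3.98). In combination array 2 the T cell list was high at 7.18 (next 6.48), the cytotoxic and NK list at 7.05 (next 6.21), Cd8a at 7.60 (next 6.79) and Il1b at 8.60 (next 8.22). In combination array 3 the nerve list was high at 6.29, while Bcl11b (6.31, next 7.10), Ccl2 (9.02, next 9.75) and Dusp6 (10.18, next 10.35) were low. In combination array 4 Igf1 (8.75), Pamr1 (9.12) and Krtap19-2 (2.88) were high and Kcnab1 (4.72) was low.

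Control array 4 held the lowest fibroblast list level of its group (9.38, next 9.54) and the highest levels of Krtap16-3 (5.40), Krt35 (5.56), Krtap19-3 (4.29), Krtap8-1 (8.15) and Tyrobp (9.61). Control array 1 was highest for Lmcd1 (7.28) and Xbp1 (11.20), and control array 3 for Dpt (7.08) and Vim (13.06). Control array 2 was lowest for Pigr (4.65, next 6.99) and Des (5.61).

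CD40 Ab array 1 was high for Clca3a1 (8.04) and Gas6 (7.58) and low for Erbb3 (6.99) and Pigr (6.45). CD40 Ab array 2 was high for Mmp7 (8.12, next 6.38), Myc (10.58), Krt19 (13.21) and Dusp6 (10.97). The skin and hair list was high in CD40 Ab array 3 (5.88, next 4.77). In CD40 Ab array 4 Ifng was high (5.65) and Kitl low (9.86).

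Of 169 named genes, 29 passed the limma test of the difference of the inhibitor effect between backgrounds, given as the log2 FC under antibody minus that without it. Hair and skin genes gave Krtap16-3 (-5.13), Krtap19-3 (-3.96), Krt35 (-3.82), Krtap19-2 (-3.73) and Trp63 (-1.81). Granulocytic and inflammatory genes gave Lcn2 (-2.25), Ccl20 (-2.10), S100a9 (-2.05), S100a8 (-1.95) and Il1b (-1.40). Dpt (-3.29), Pdgfd (-1.94), Prrx1 (-1.17) and Tgfbi (-0.91) of stromal and mesenchymal lists also had the lower value under antibody, as did Btc (-1.81) and Spry4 (-0.88).

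The higher value under antibody was found for Col11a1 (2.27), Uchl1 (2.16), Lmcd1 (2.08), Acsbg1 (2.00), Klhl1 (1.63), Cdh2 (1.29), Blk (1.22), Kcnab1 (1.07), Vwf (1.01), Pdgfc (0.73), Cdkn2b (0.65), Cdkn1b (0.59) and Sqstm1 (0.51). Blk is a kinase gene of B cells that rose with the inhibitor under antibody (1.30) and gave 0.08 without it. All combination tumors lay in the lower and all MEKi tumors in the upper number series. Within the inhibitor arrays antibody and series therefore cannot be told apart. The vehicle groups held tumors of both series, but these differences were not fitted with the series as a covariate.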

How the results depend on the processing

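Of 5520 recomputed values of named genes, 4669 kept the call, 821 lost it, 9 gained it and 21 changed sign. A change of sign was counted only where the main or the recomputed fit passed. Values that changed sign with no call in either fit, as in Egr1, Spry4, Myc and Ccnd1, are among the 4669. The main effect (9584 probe sets) gave 6002 within the lower and 2486 within the upper number series, 924 with a 2-fold minimum, 4830 at an adjusted p under 0.01, 211 with muscle and skin levels as covariates, and 390 with the muscle level alone, an alternative chosen after seeing the data. With the number series as a covariate 9541 passed. Median centring gave 3594 higher and 7063 lower against 4100 and 5484. Leaving out 1 array at a time gave 7855 to 9301. At an adjusted p under 0.01 the counts were 2929 of 7162 without antibody, 365 of 2019 under it and 321 of 1441 for the difference between backgrounds.

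Leaving out 1 array gave 4398 to 7883 without antibody, with 4398, 4492 and 4770 when control 1, 2 or 3 was left out. Under antibody the range was 933 to 1908, with 936, 1316 and 1145 without CD40 Ab 2, 3 or 4, and 1046, 933 and 997 without combination 1, 2 or 4. For the difference it was 745 to 2072, with 888 and 745 without control 1 or 2, 910 and 941 without CD40 Ab 3 or 4, 821 without MEKi 3 and 932 without combination 2 or 4. The cause was not tested.

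Replicate numbers do not pair the samples: of 21 same-numbered pairs 9 had a correlation of deviations over 0.1 (-0.28 to 0.21), and 6 of 15 arrays were closest to a same-numbered array. With the replicate block the counts were 8868 for the main effect, 3159 without antibody, 935 under it and 1171 for the difference.

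The 21 changes of sign counted above are listed here. Signs turned within the lower series for Oasl1 (0.0255), Krtap16-3 (-0.108), Krtap19-3 (-0.035) and Krtap19-2 (-0.0065), and within the upper for Zbp1 (-0.0733), Ifit2 (-0.107), Oasl2 (-0.273) and Nkg7 (-0.00667). They turned with muscle and skin covariates for Spry1 (-0.0155), Idi1 (0.0306), Eng (-0.0506), Tyrobp (-0.154), Itgax (-0.0813), Des (-0.165), Myh4 (-0.504) and Cd8a (-0.0899), and with the muscle covariate alone the last 5 gave -0.0712, -0.112, -0.00581, -0.779 and -0.0839.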

Other observations

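Some genes outside the lists, picked here after their values were seen, also separated the arrays and passed by limma in both backgrounds. Abcb1a and Abcb1b, which encode the mouse forms of the drug efflux pump P-glycoprotein, were lower: Abcb1a lay at 9.16 to 10.23 in vehicle and 7.14 to 8.23 in inhibitor arrays (-1.98 ± 0.14 (SE), adjusted p = 1.01e-06), and Abcb1b at 8.30 to 8.72 and 5.72 to 7.69 (-1.88 ± 0.19, adjusted p = 2.06e-05). Il33, encoding an alarmin cytokine of epithelial and stromal cells, fell from 10.17 to 11.43 in vehicle arrays to 8.73 to 9.77 in inhibitor arrays (-1.35 ± 0.18, adjusted p = 0.000144), by 1.12 without antibody and 1.54 under it. Tnfaip3, encoding A20, a brake on NF-kappaB, rose from 9.14 to 9.40 to 9.77 to 10.06 (0.67 ± 0.05, adjusted p = 1.93e-06), with 0.62 without antibody and 0.70 under it.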
